A study of Mus musculus with 44 samples.

Results

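Depolarisation with KCl for 10 min was compared with no stimulation in primary cortical culture from C57BL6J mouse pups, kept for 10 days in vitro (DIV10). The comparison was defined by the culture labels and took in 6 of the 44 samples of the series, which were 3 libraries from the culture labelled KCl stim 10 min and 3 from its unstimulated control. Each culture had 1 RNA-seq library, 1 ribosome-profiling library and 1 TAIL-seq library. A culture treated with KCl for 30 min at the same age shared this control, and its values are given beside those of 10 min where they bear on a gene. According to the methods of the study, the cortices of newborn pups of both sexes were pooled by litters for plating, and all cultures received AraC, an inhibitor of DNA synthesis, early after plating. The KCl concentration and any silencing of activity before stimulation are not given in the sources used here. With 1 library for each assay and culture, no difference could be tested against the spread between cultures, and every interval below covers counting error only.

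Raised extracellular KCl depolarises neurons and opens voltage-gated calcium channels, and calcium-dependent kinases then act on transcription factors such as CREB and SRF that are already bound at their targets. The first genes to be transcribed, the immediate early genes, include Fos, Egr1, Nr4a1 and Npas4, which encode transcription factors, and their mRNAs need no new protein synthesis to appear. Translational efficiency (TE) describes how many ribosomes sit on an mRNA for its abundance, and short reading frames upstream of the main one are a known route by which cells change it. The poly(A) tail at the end of an mRNA is shortened as the mRNA ages in the cytoplasm and protects it from decay.

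Reads on genes numbered 1191140 in the control and 530981 after 10 min of KCl for RNA-seq, 9477806 and 5515106 for ribosome-protected fragments (RPFs), and 604775 and 574544 tags for TAIL-seq. Ribosome profiling was therefore the deepest measurement, and the RNA-seq of the stimulated culture the shallowest. Markers of neurons, such as Tubb3 and Stmn2, were present in every library, as were those of inhibitory neurons and astrocytes. Summed tags of the 10 neuron markers, per 1000000 counts on genes (CPM), were 8370 and 8920 in the control and at 10 min. The 9 microglia markers summed to 54.6 and 52.2 CPM, with P2ry12 and Tmem119 at 0 tags in both. In the deeper ribosome profiling, 0 of these 9 markers were without RPFs in either library. Markers of vessels, meninges and blood, of which 8 of 10 were matched, summed to 429 and 268 CPM in ribosome profiling. The collagen genes carried this difference, with 1979 and 592 RPFs for Col1a1 and 588 and 145 for Col3a1. Cldn5, which defines endothelium, was at 0 tags and 0 RNA-seq reads in both. All 8 matched markers, Cldn5 among them, had RPFs in the control, and 1 of the 8 was at 0 RPFs at 10 min. In a culture of mixed cells, fewer cells of a type and less RNA per cell cannot be told apart.

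CREB binds cAMP-response elements, which lie close to the start of several immediate early genes. To show such sites in genes that had more RPFs after KCl, the 250 bases before the annotated start are given for 3 of them, from RefSeq promoters of GRCm38.p6, with each half-site TGACG, or CGTCA on the other strand, in capitals.

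Nr4a1, chr15:101266596-101266845, plus strand: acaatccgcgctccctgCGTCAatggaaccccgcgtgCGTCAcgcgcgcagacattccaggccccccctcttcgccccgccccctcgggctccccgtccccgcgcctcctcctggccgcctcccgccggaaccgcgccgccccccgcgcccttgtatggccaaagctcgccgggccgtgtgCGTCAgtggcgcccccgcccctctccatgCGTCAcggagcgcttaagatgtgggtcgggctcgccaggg

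Npas4, chr19:4989972-4990221, minus strand: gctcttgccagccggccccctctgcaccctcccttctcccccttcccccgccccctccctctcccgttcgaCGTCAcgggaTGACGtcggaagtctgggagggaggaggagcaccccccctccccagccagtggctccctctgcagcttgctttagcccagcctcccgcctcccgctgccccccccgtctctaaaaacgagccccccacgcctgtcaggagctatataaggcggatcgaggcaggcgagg

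Fos, chr12:85473640-85473889, plus strand: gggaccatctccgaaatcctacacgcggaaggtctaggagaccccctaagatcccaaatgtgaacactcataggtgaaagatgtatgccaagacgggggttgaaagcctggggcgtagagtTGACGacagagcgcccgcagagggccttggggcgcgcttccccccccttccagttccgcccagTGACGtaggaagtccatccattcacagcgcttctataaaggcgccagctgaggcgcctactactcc

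These windows held 4, 2 and 2 half-sites, and none held the full palindrome TGACGTCA. Of 32851 promoter windows of this length, 17.8% held a half-site on either strand and 1.55% the palindrome. Among the 8 early genes at least 2-fold higher in RPFs whose window could be printed, Fosb held 1 half-site, Egr4 held 2, Maff held 2 half-sites and 1 palindrome, which itself contains the half-site on both strands, and Zfp36 and Ier3 held none. Egr1, also at least 2-fold higher in RPFs, had no window here and is not in this count. Zfp36 had 1 CArG box, the site of SRF, which 1.47% of the windows held. A match describes these letters and was not tested as a binding site.

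Early genes were searched for in RPFs first, because these gave more counts per gene than tags. Of 69 early genes found in the files, 65 had at least 50 RPFs summed over the control and the 10 min culture. After 10 min, 9 of the 65 had at least 2-fold more RPFs and 1 had at least 2-fold fewer, where the background over all 11593 genes compared was 0.733% higher and 5.2% lower. The median change of the 65 was 0.25 on the log2 scale of RPFs as a share of all RPFs on genes, against −0.05 for all genes. A fold above 1 was found for 47 of the 65 (72.3%), against 45.0% of all genes. The 95% Clopper-Pearson interval lay above 1 for 31 of the 65, below 1 for 8 and held 1 for 26. Over all 11593 genes compared, the interval lay above 1 for 2320. With at least 100 RPFs summed, 5 early genes were at least 2-fold higher, and the share of all genes at this cutoff was not taken.

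Most of the 9 encode transcription factors. Nr4a1, an orphan nuclear receptor, had 33 RPFs in the control, 67 at 10 min and 305 at 30 min. This was 3.49-fold more at 10 min (95% interval 2.27 to 5.47) and 28.7-fold more at 30 min after scaling to the reads on genes. Its tags numbered 7, 6 and 158, and the tag fold at 10 min was 0.902 with a wide interval of 0.251 to 3.14. Fosb, a partner of Jun proteins in the AP-1 complex, had 18, 34 and 305 RPFs, a 3.25-fold difference at 10 min (1.78 to 6.11). Egr4 and Npas4, a zinc-finger factor and a neuron-specific factor that responds to calcium, had 41, 69 and 191 and 35, 52 and 605 RPFs. Their folds at 10 min were 2.89 (1.94 to 4.37) and 2.55 (1.63 to 4.04). Fosb tags were 4, 5 and 59. Egr4 tags were 16, 11 and 82, with a fold of 0.724 at 10 min (0.304 to 1.66). Npas4 tags were 0, 1 and 27, which is too few to give a fold at 10 min.

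Egr1 and Fos were higher at 10 min in both RPFs and tags, with intervals above 1 in each, as were Jun, Klf6 and Dusp6. Egr1, a zinc-finger transcription factor, had 33 tags in the control, 72 at 10 min and 413 at 30 min. Its tags were 2.30-fold higher at 10 min (1.5 to 3.58) and its RPFs, which numbered 341, 462 and 2145, were 2.33-fold higher (2.02 to 2.69). RNA-seq gave only 9, 5 and 18 reads for Egr1, so that this assay said little about it. Fos had 40, 69 and 651 tags, which was a 1.82-fold difference at 10 min (1.21 to 2.75). Its RPFs numbered 263, 336 and 2857 and its RNA-seq reads 16, 23 and 197, which were 2.20-fold (1.86 to 2.59) and 3.22-fold higher at 10 min. Both genes had much larger folds at 30 min, when Fos RPFs were 33.8-fold and Egr1 RPFs 19.6-fold above the same control.

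The remaining genes past 2-fold were Zfp36, Maff and Ier3. Zfp36, which encodes an RNA-binding protein that brings deadenylases to AU-rich mRNAs, had 27 RPFs in the control, 45 at 10 min and 18 at 30 min, and its fold was 2.86 at 10 min (1.74 to 4.8) and 2.07 at 30 min. Maff and Ier3 had 44, 53 and 29 and 50, 59 and 51 RPFs, with folds of 2.07 (1.36 to 3.16) and 2.03 (1.37 to 3.02) at 10 min. Maff tags were 17 and 6, a fold of 0.372 (0.12 to 0.988) in the opposite direction from its RPFs. Just below 2-fold were Ier2 (1.97), the kinase Sgk1 (1.90), the pseudokinase Trib1 (1.87) and the MAP kinase phosphatase Dusp6 (1.87). Sgk1 and Dusp6 were deep genes, with 573 and 634 and with 458 and 498 RPFs, and their intervals ran from 1.70 to 2.13 and from 1.64 to 2.13. Tags of Ier2 were 22 and 36, of Sgk1 41 and 41, of Trib1 19 and 15 and of Dusp6 33 and 51. Their tag folds were 1.72, 1.05, 0.831 and 1.63, and only the interval of Dusp6, 1.03 to 2.6, lay above 1. In the plot of RPFs by culture, the 10 min value lies between the control and the 30 min value for the early transcription factors Nr4a1, Fosb, Egr4, Npas4, Egr1 and Fos.

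Smaller changes, and changes in the other direction, were also found among the early genes at 10 min. Arc, a regulator of AMPA-receptor trafficking, had 69 RPFs in the control, 49 at 10 min and 266 at 30 min, and its fold at 10 min was 1.22 (0.828 to 1.79). Junb had 356, 268 and 1202 RPFs, with a fold of 1.29 (1.10 to 1.52) at 10 min and 10.5 at 30 min. Bdnf, which encodes a secreted neurotrophin, had 103, 54 and 52 RPFs, and 0.901 (0.636 to 1.26) held 1. Homer1, a postsynaptic scaffold, was the 1 early gene with at least 2-fold fewer RPFs, with 442 in the control, 109 at 10 min and 69 at 30 min (0.424-fold at 10 min, 0.340 to 0.524). Its counts were for 1 annotated form, with a coding sequence of 1101 nt, and other forms of the gene were not counted apart. Its tags were 39, 33 and 49 and its RNA-seq reads 113, 60 and 119, with folds at 10 min of 0.891 (0.543 to 1.45) and 1.19 (0.856 to 1.64).

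By tags, 12 early transcription factors and 17 early effectors had at least 50 tags summed. Of the 12 factors, 2 were at least 2-fold higher, Egr1 and Klf6, and none lower, where the background over 4949 genes was 0.707% higher and 0.546% lower. Klf6 had 32, 61 and 83 tags (2.01-fold at 10 min, 1.29 to 3.18). The median of the 12 was 0.56 on the log2 scale of tags, against 0.02 for all genes. None of the 17 effectors passed 2-fold and their median was 0.07. At 30 min, 11 of 18 early factors were at least 2-fold higher by tags, with 1.07% of all genes, and 14 of 29 by RPFs, with 0.917% of all genes. RPFs of the 30 early factors summed to 785, 1010 and 3530 CPM in the control, at 10 min and at 30 min.

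Across all genes, tag counts differed little. Of 4949 genes with at least 50 tags summed, 35 were at least 2-fold higher after 10 min and 27 at least 2-fold lower, and the SD of the log2 change was 0.34. In 6 of the 35 and 6 of the 27 the counting interval also lay beyond 1.5-fold. RNA-seq gave 18 higher (0.255%) and 70 lower (0.993%) of 7052 genes. In the plot of tags per gene, the cloud follows the line of equality and widens toward low counts of the order of the 50 tags needed.

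The genes with more tags, ranked by the bound of the interval nearest to 1, were of many kinds. Penk, the precursor of enkephalins, had 60 tags in the control, 120 at 10 min and 166 at 30 min (2.11-fold at 10 min, 1.53 to 2.92), and its RPFs were 468 and 432, a 1.59-fold difference. Cacna2d1, the α2δ-1 subunit of voltage-gated calcium channels, had 97, 181 and 221 tags (1.96-fold, 1.53 to 2.54), whereas its RPFs, at 4613 and 1990, were 0.741-fold. Nexmif, an X-linked gene of neurite growth, had 20, 53 and 76 tags (2.79-fold, 1.64 to 4.93), with 262 and 153 RNA-seq reads (1.31-fold). The others of the 12 were Dcun1d1, Fut9, Egr1, Cnot11, Ahsa2, Atrx, Kif21a, Trrap and Chid1, which had 15 to 38 tags in the control. For the 11 of the 12 with more than 3 reads in both RNA-seq libraries, RNA-seq folds ran from 0.748 to 1.40, with 9 above 1, so that none passed 2-fold in that assay. RPF folds of the 12 ran from 0.669 to 2.33, with 6 above 1.

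Genes with fewer tags included genes of fibroblasts and smooth muscle and genes induced by interferon. Ccn5, a secreted matrix protein, had 72 tags in the control, 17 at 10 min and 34 at 30 min (0.249-fold at 10 min, 0.137 to 0.426). It was lower in the other assays too, with 92 and 11 RNA-seq reads and 413 and 98 RPFs. Tagln and Myl9, contractile proteins of smooth muscle, had 233 and 116 and 74 and 33 tags, with folds of 0.524 (0.416 to 0.658) and 0.469 (0.302 to 0.717). Cxcl10 and Ifit3, which interferon induces, had 117 and 48 and 53 and 20 tags, with folds of 0.432 (0.302 to 0.609) and 0.397 (0.225 to 0.676). Id3, an inhibitor of bHLH factors, had 83 and 35 tags, 58 and 11 RNA-seq reads and 564 and 213 RPFs. The collagen counts given above moved with these genes, and their part in the result was not tested.

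A few of the genes with fewer tags were not lower in the other assays. Eif4g1, the scaffold of the cap-binding complex, had 77, 30 and 64 tags (0.410-fold at 10 min, 0.260 to 0.633), but 804 and 393 RNA-seq reads (1.10-fold) and 9276 and 5221 RPFs (0.967-fold). Snx15 had 47, 18 and 47 tags and S100a11 had 44, 15 and 11 tags, with RPF folds of 1.55 and 1.02. AW209491 had 37 and 13 tags, with folds of 1.18 in RNA-seq and 0.954 in RPFs. Igfbp5 and Ecrg4 had the most tags of the 12, with 528 and 305 and with 511 and 298. Both were also below 1 in the other assays, with RPF folds of 0.896 and 0.694. Their RNA-seq folds were 0.698 (0.458 to 1.04) and 0.7 (0.568 to 0.857). For the 9 of the 12 with more than 3 RNA-seq reads in both libraries, 7 were below 1 in RNA-seq, and 10 of all 12 were below 1 in RPFs.

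TE was taken as the log2 ratio of RPF to RNA-seq reads scaled by the authors to library totals (RPM, per 1000000 reads) for the 4734 genes with at least 10 RPM in both RNA-seq libraries and at least 1 RPF in both. The median gene had 131 RNA-seq reads and 842 RPFs in the control and 60 and 458 at 10 min. On this scale the median TE change was −0.41, with 705 genes (14.9%) at least 2-fold lower and 0 (0%) at least 2-fold higher. The RPM values refer to totals of which genes made up 58.3% and 51.3% in ribosome profiling and 19.5% and 21.9% in RNA-seq of the control and the 10 min culture. At 30 min the shares were 56.0% and 13.8%, and the median change on the RPM scale was 0.32. Scaled to reads on genes, the median changes were −0.06 at 10 min and −0.12 at 30 min. TE changes of single genes are printed on the RPM scale and have to be set against these RPM medians, so that values at 10 and 30 min are compared only relative to the median of each. Relative to the median of 10 min, 244 genes (5.15%) were at least 2-fold lower and 25 (0.528%) at least 2-fold higher.

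The spread of TE changes was smaller than the range of TE itself. From the 1st to the 99th percentile the TE change ran from −2.04 to 0.45 on the log2 scale, with an SD of 0.52. Between the same percentiles, TE of the control ran from −1.20 to 3.51, which is 26.1-fold. After 10 min this range was 66.9-fold, since the low end moved from −1.20 to −2.68 on the log2 scale and the high end from 3.51 to 3.38. On the same RPM scale the median moved from 1.18 to 0.79, so that the high end fell less than the median and the low end more. The ranks of genes were largely kept, with a Spearman correlation of 0.90 across the 4734 genes, which are not independent replicates and share the depth of 4 libraries. The low end thus differed more between the libraries than the high end.

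TE changes were ordered by the number of ATGs upstream of the annotated start codon. Genes with none, 2370 in number, had a median TE change of −0.30. With 1, with 2, with 3 to 4, with 5 to 9 and with 10 or more upstream ATGs the medians were −0.47, −0.58, −0.68, −0.73 and −0.80, in 1015, 503, 464, 287 and 73 genes. The share at least 2-fold below the overall median was, along the same series, 1.56%, 4.83%, 9.74%, 11.4%, 14.6% and 17.8%. Of the 244 genes at least 2-fold below the median, 243 had an annotated coding sequence. An upstream ATG was held by 206 of these (84.8%), against 49.7% of all 4712 compared genes so annotated. Genes without an annotated 5′ UTR count as having none. The Spearman correlation of the TE change with the number of upstream ATGs was −0.32 across 4712 genes.

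The order was seen in ribosome footprints, while mRNA changes were smaller and had the opposite order. Median RPF changes over the same bins were 0.04, −0.09, −0.21, −0.26, −0.31 and −0.34 on the log2 scale, whereas RNA-seq changes were −0.01, 0.01, 0.02, 0.04, 0.06 and 0.09 and tag changes lay between 0.00 and 0.09. When TAIL-seq tags stood for mRNA abundance, the median RPF change over the tag change went from 0.04 without an upstream ATG to −0.45 with 10 or more. RPFs alone were also compared for genes with at least 50 RPFs summed and an annotated coding sequence. At least 2-fold fewer RPFs were found in 1.98% of 5815 genes without an upstream ATG and 18.7% of 203 with 10 or more. In the control, median log2 TE was already 1.29 without and 0.72 with 10 or more upstream ATGs, and at 10 min it was 1.01 and −0.22.

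Long 5′ UTRs hold more ATGs, so genes were also compared within 4 equal groups of 5′ UTR length. In the longest group, of 317 to 2532 nt, the median TE change was −0.37 for 145 genes without and −0.66 for 1032 genes with an upstream ATG, and 2.07% and 12.9% were at least 2-fold below the median. In the group of 186 to 316 nt the medians were −0.35 and −0.61. The difference was smaller in the shorter groups, at −0.31 and −0.44 from 102 to 185 nt and, in 5′ UTRs of at most 101 nt, at −0.25 and −0.31. Correlations with 5′ UTR length and 3′ UTR length were −0.29 and −0.24 across the same 4712 genes.

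Other stimulated cultures gave smaller differences over the same bins. In the 30 min culture, which shares the control, medians were 0.40 without and 0.11 with 10 or more upstream ATGs, and 4.61% of 3535 genes were at least 2-fold below the median. In DIV14 cultures with a control of their own, BDNF for 30 min gave medians from −0.11 to −0.07 with no order, and glutamate with glycine (glu/gly) for 30 min gave −0.27 without, −0.42 with 5 to 9 and −0.31 with 10 or more. The correlation with the number of upstream ATGs was 0.03 for BDNF and −0.07 for glu/gly, across 4687 and 4710 genes. Age, batch and stimulus of these cultures cannot be told apart, and the difference between stimuli was not tested. The plot of TE change by upstream ATGs shows the 10 min series with the widest range of medians of the 4.

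The 10 genes with the lowest TE changes, ranked by the bound of the counting interval nearest to 0, all held an upstream ATG. The first one of 6 of these genes is shown with its surroundings from the RefSeq 5′ UTRs of GRCm38.p6, to let the context of the ATG be read, with the ATG in capitals.

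Marchf8, chr6:116338082-116338111, plus strand: ccggcccgggtcATGcaggaagcgggccgc

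Ccni, chr5:93206235-93206264, minus strand: ccccgccgccctATGgcgagagggcgcccc

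Csnk1g2, chr10:80622800-80622829, plus strand: tctccgccgaacATGccgaggccggccccg

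Egln2, chr7:27166733-27166762, minus strand: ggggggcggggtATGgcgcgctgcgaagcg

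Zdhhc2, chr8:40423871-40423900, plus strand: cgctgccgcgggATGgggagctagcgccac

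Ulk2, chr11:61854920-61854949, minus strand: gcacctgcggggATGgcgcggccccggccc

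Each of these ATGs opened a reading frame that stopped within the 5′ UTR, after 3 codons in Zdhhc2, 13 in Marchf8, 20 in Ulk2, 32 in Csnk1g2 and Egln2, and 33 in Ccni. They lay 73, 244, 33, 53, 69 and 156 bases from the annotated 5′ end in the order shown. The 5′ UTR of Zdhhc2 held this 1 upstream ATG and the others held 4 each.

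These genes had far fewer footprints at 10 min, while their RNA-seq folds lay near 1 or above. Marchf8, a membrane-bound ubiquitin ligase, had 93 RPFs in the control, 7 at 10 min and 7 at 30 min. Its RNA-seq reads were 62, 39 and 49 and its tags 48, 56 and 70, and the TE change at 10 min was −3.80 (counting interval −5.05 to −2.55). Ccni, which encodes cyclin I, had 129, 10 and 5 RPFs, with 128, 61 and 81 RNA-seq reads and 102, 105 and 104 tags, and a TE change of −3.35 (−4.38 to −2.33). Csnk1g2, a casein kinase, had 199, 19 and 13 RPFs and 194, 88 and 96 RNA-seq reads (−2.98, −3.75 to −2.21). Egln2, a prolyl hydroxylase that marks HIF for decay, had 133, 14 and 21 RPFs and 129, 68 and 92 RNA-seq reads (−3.06, −3.96 to −2.16). Relative to the median of each time, Csnk1g2 was at −2.58 at 10 min and −1.73 at 30 min, and Egln2 at −2.65 and −0.99.

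Ulk2, a kinase that starts autophagy, was the deepest of the 10 and had 483, 72 and 68 RPFs, 318, 166 and 174 RNA-seq reads and 91, 95 and 141 tags. Its TE change at 10 min was −2.54 (−2.99 to −2.09), and relative to the median of each time it was at −2.14 at 10 min and −0.77 at 30 min. Zdhhc2, a palmitoyltransferase of postsynaptic proteins, had 271, 31 and 28 RPFs and 141, 67 and 88 RNA-seq reads (−2.79, −3.47 to −2.11). The other 4 were 4833439L19Rik, Asphd2, Zfp251 and Atp11b. RPF folds of all 10 ran from 0.111 to 0.310 and RNA-seq folds from 0.966 to 1.72. Of the 7 that could be compared at 30 min, changes relative to the median of that time ran from −2.84 in Ccni to −0.46 in Atp11b, a flippase with 144, 26 and 66 RPFs.

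The highest TE changes were smaller and had another make-up. Gja1, the gap-junction protein connexin 43 of astrocytes, had 2603 RPFs in the control and 2080 at 10 min (1.37-fold) but 204 and 51 RNA-seq reads (0.561-fold), which gave a TE change of 0.94 (0.49 to 1.39). Its tags, at 119 and 105, were 0.929-fold, closer to the control than the RNA-seq reads were. Sephs2, a selenophosphate synthetase, had 160 and 149 RPFs and 139 and 43 reads (0.86, 0.27 to 1.44), and Cdk5, a kinase of postmitotic neurons, 617 and 588 RPFs and 155 and 54 reads (0.72, 0.24 to 1.19). Stoml1, Cinp, Sdhc, Alg2, Mien1, Anapc2 and Igsf8 completed the 10. All 10 had RNA-seq folds below 1, from 0.561 to 0.782, and RPF folds from 1.36 to 1.65. Ranking by TE change, the ratio of these assays, itself selects for low RNA-seq and high RPF folds. Of the 10, 9 had no upstream ATG and Igsf8 had 1. The plot of folds by assay separates the lowest genes, where the RPFs alone lie far from 1, from the highest, where RPFs lie above 1 and RNA-seq reads below.

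**Figure D1:**
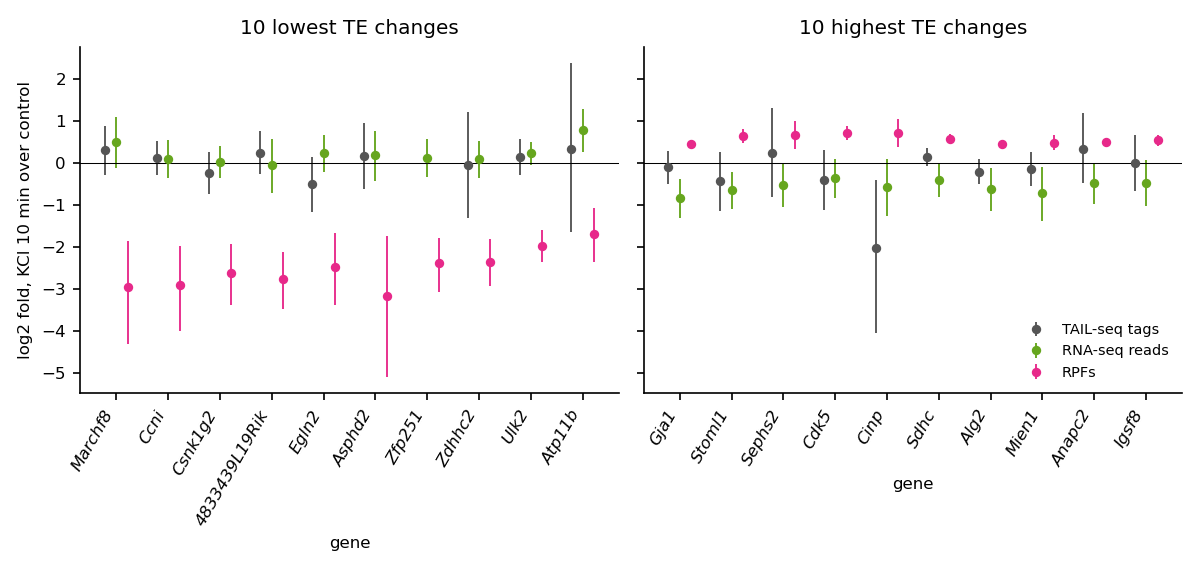
Log2 fold of TAIL-seq tags, RNA-seq reads and RPFs, KCl 10 min over control, for the genes with the 10 lowest and 10 highest TE changes, with 95% counting intervals. RPF folds ran from 0.111 to 0.310 on the left and from 1.36 to 1.65 on the right, and no tag fold is shown for Zfp251, which had 1 and 0 tags.

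Gene groups were set against the shares over all 4734 genes, of which 5.15% were at least 2-fold below the median and 0.528% at least 2-fold above it. Among mRNAs known for upstream reading frames or for a rise under stress, 6 could be compared, with a median TE change 0.05 above that of all genes, and 1 was at least 2-fold below the overall median. That gene was Ppp1r15b, a subunit of the phosphatase that removes phosphate from eIF2α, with 354 and 88 RPFs and 85 and 57 RNA-seq reads (−2.17, −2.76 to −1.58). Atf4, the textbook mRNA that is translated more when eIF2α is phosphorylated, had 264 and 134 RPFs and 395 and 156 reads, and its change of −0.37 (−0.77 to 0.03) was 0.04 above the median of all genes. Ifrd1, with 1 upstream ATG, changed by −0.89 (−1.43 to −0.36).

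Of 35 translation factors, none was at least 2-fold beyond the median change in either direction, and their median was 0.13 above it. The lowest was Eif2s1, which encodes eIF2α itself, with 421 and 182 RPFs and 68 and 38 reads (−1.10, −1.73 to −0.48). Of 28 genes that carry calcium signals to the nucleus, 21 were below the overall median. Only 1 of the 28 was at least 2-fold below it, a share near the 5.15% of all genes. Camkk2, which activates CaM kinases, was less than 2-fold below it, with 490 and 202 RPFs (−1.01, −1.53 to −0.49).

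Of 24 FMRP targets and dendritic mRNAs, 16 lay below the overall median and 1 at least 2-fold below it, a share near the 5.15% of all genes. Ddn, which encodes the dendritic protein dendrin, had 598 and 150 RPFs, 275 and 121 reads and 48 and 22 tags (−1.55, −1.95 to −1.14), without an upstream ATG. Dlg4, the scaffold PSD-95, had 1627 and 642 RPFs and 300 and 153 reads (−1.10, −1.41 to −0.79), and Fmr1 itself 612 and 304 and 95 and 62 (−1.13, −1.63 to −0.63). Among 10 genes of the deadenylation machinery, Cnot7, a catalytic subunit of CCR4-NOT with 4 upstream ATGs, was the 1 at least 2-fold below the median, with 299 and 87 RPFs, 144 and 72 reads and 72 and 105 tags (−1.52, −2.05 to −0.98).

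Of the 13 early genes that passed the RNA-seq cutoff, 5 lay below the overall median TE change, 1 at least 2-fold below it (Homer1) and 1 at least 2-fold above it (Dusp6), against 5.15% and 0.528% of all genes. Homer1 had a TE change of −1.84 and Jund, a Jun protein with 999 and 374 RPFs and 210 and 109 reads, of −1.21, whereas Dusp6 and Sgk1 were at 0.59 and 0.51. Nr4a1, Fosb, Egr1, Fos and Npas4 were below 10 RPM in RNA-seq and have no TE here.

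Cell markers were counted in the same way. None of 4 inhibitory-neuron markers lay below the overall median TE change, and 1 of 8 astrocyte markers and 2 of 8 neuron markers did. RPFs of the 9 astrocyte markers summed to 2960 CPM in the control and 3720 CPM at 10 min, while their tags summed to 1460 and 1530 CPM and their RNA-seq reads to 2220 and 2180 CPM. Of 17 ribosomal protein genes, 12 were below the median, and 1, Rps24, at least 2-fold below it, near the share of all genes, with 328 and 81 RPFs and 79 and 34 reads (−1.54). Ribosomal protein genes share reads with processed copies elsewhere in the genome, so that their counts are uncertain.

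Mean poly(A) tails were compared for the 2543 genes with at least 50 tags in both libraries. Their median change was −0.16 nt, and the mean tail over all tags on genes was 103.1 nt in the control and 103.2 nt at 10 min. Of the 2543 genes, 198 (7.79%) had a mean tail at least 10 nt longer and 193 (7.59%) at least 10 nt shorter, so that the counts in both directions were nearly equal. At 30 min, 11.8% of 2815 genes were at least 10 nt longer and 4.23% at least 10 nt shorter, with a median change of 2.22 nt against the same control. Synthetic standards of known length were measured in the same libraries. For the 8 standards with at least 50 tags in both libraries, the mean at 10 min differed from the control by −2.22 to 8.84 nt, with a median of 0.71 nt, and the standard of nominal length 100 with 3202 and 4276 tags measured 108.35 and 108.11 nt. Other standards lay further from their nominal length in both libraries, with 177.5 and 186.3 nt for one of 250 nt and 66.3 and 67.9 nt for one of 50 nt, so that lengths are read as differences between libraries. In the 30 min library, that 250 nt standard measured 167.5 nt. One of 30 nt measured 44.8 nt there, against 37.8 nt in the control. Both differed from the control by more than the median tail change of 2.22 nt, whereas the 100 nt standard given above measured 107.64 nt.

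The size of tail changes followed the number of tags. The SD of the change was 8.47 nt for genes with 50 to 99 tags in the shallower library, 6.10 nt with 100 to 199, 4.52 nt with 200 to 499 and 2.83 nt with 500 or more. None of the 111 genes with 500 or more tags changed by 10 nt. The most negative change among them was that of Sub1, a transcriptional coactivator with 567 and 544 tags (89.9 and 80.6 nt), and Actb, the cytoplasmic actin, had 1705 and 1352 tags (94.5 and 99.9 nt). In the plot of tail change against tags, the points close in on 0 as depth grows.

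The longest and shortest changes therefore came from genes near the cutoff. The 10 longest had 50 to 75 tags in the shallower library and changed by 21.1 to 31.1 nt, and the 10 shortest had 50 to 71 tags and changed by −29.6 to −21.3 nt. Dpf1, a neuronal subunit of chromatin remodellers, had 54 and 54 tags and tails of 105.1 nt in the control, 136.3 nt at 10 min and 121.4 nt at 30 min. Nav1, a neuron navigator, had 78 and 60 tags and 91.3, 116.7 and 116.1 nt. The others of the 10 were Map7d1, B4gat1, Ppp5c, Vkorc1l1, Amotl2, Slc25a17, Fkbp1b and Kctd2. Among the shortest, Bend6 had 70 and 89 tags and 110.0, 80.9 and 96.6 nt, and Cnot8, a catalytic subunit of CCR4-NOT, 73 and 63 tags and 109.2, 87.6 and 98.4 nt. Mcfd2, Terf2ip, Pdcd4, Anks1b, Kit, Uhrf1bp1l, Abce1 and Sgcb were the others. At 30 min, 9 of the 10 shortest could be compared, of which 7 were shorter and 2 longer, from −13.99 to 2.73 nt. All 10 of the longest were longer at 30 min, by 4.3 to 24.8 nt. Both times share the control library, so these values are not independent of those at 10 min. The files hold no spread of tails within a gene, so no single change has an interval.

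Tails of early genes were compared as well. Of the 13 with at least 50 tags in both libraries, none was at least 10 nt longer, and Plk2, a kinase of synaptic scaling, was at least 10 nt shorter, by 14.1 nt with 105 and 115 tags, where 7.79% of all genes were longer and 7.59% shorter by this much. At 30 min, 3 of 13 were at least 10 nt longer, against 11.8% of all genes. Fos, with 40, 69 and 651 tags, stood below the cutoff and had mean tails of 110.0, 130.3 and 127.8 nt, and Egr1, with 33, 72 and 413 tags, 139.8, 151.7 and 146.7 nt. Btg2, which recruits deadenylases, measured 99.7 nt in the control and 105.1 nt at 10 min, and 135.1 nt at 30 min, from 58, 66 and 96 tags. Pnrc1, a nuclear receptor coactivator that also takes part in decapping, had an unusually short tail of 43.4 nt in the control, 45.5 nt at 10 min and 89.5 nt at 30 min, from 55, 58 and 91 tags. Pnrc1 and Btg2, whose tails were longer at 30 min than in the control, thus lay within 10 nt of it at 10 min.

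Tail changes and TE changes had almost no rank correlation across genes. Their Spearman correlation was 0.01 over the 2063 genes with both, and that of tail change with tag change was −0.10 over 2543 genes. Median tail change by number of upstream ATGs lay between −2.31 and 0.77 nt with no order. Mean tails of the control and the 10 min culture correlated at 0.82 over 2543 genes, which are not independent replicates and share 2 libraries.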

How the data were processed

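The comparison used 6 samples, grouped by their labels, with 3 samples of KCl for 30 min and 6 of DIV14 cultures beside them. Read counts and RPM were deposited per gene by the authors for RNA-seq and RPFs, from reads mapped to annotated coding sequence, leaving out the first 50 nt. Tag counts and mean and median tail lengths in nt were deposited for TAIL-seq, with tails read by a hidden Markov model of 5 states. The authors' deposited log2 TE served as an alternative. STAR 2.4.2, bedtools and mm10 are named in the submitters' processing notes, and the RNA-seq preparation of these cultures is not given in the sources used here. Folds are shares of counts on genes, for genes with at least 50 counts summed, with 95% Clopper-Pearson intervals (scipy 1.17.1), and TE intervals come from the 4 counts by the delta method. Tags on standards were left out of library sizes. Of 16100 RefSeq accessions, 15979 carried a symbol. Genes named were the 12 highest and lowest by tags and the 10 by TE, ranked by the interval bound nearest to no change, the 10 by tails, and list members with the largest changes or most tags. Scripts were tested on simulated data. Members and lists were chosen with earlier results of these data known. Some items are not reported here. No test between cultures was run, since each had 1 library.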

Additional observations from a re-analysis of the deposited data

Results flagged for a closer look

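The median changes of tail length and of TE had opposite signs at 10 and 30 min of KCl, each taken against the same unstimulated library, but both signs depend on how the values are made. The median change of the mean tail was −0.16 nt at 10 min and 2.22 nt at 30 min, and with the median tail of each gene the change at 10 min was 0.50 nt. The median log2 TE change on the RPM scale was −0.41 at 10 min and 0.32 at 30 min, and scaled to reads on genes it was −0.06 and −0.12, of the same sign. With 1 library for each time these differences were not tested.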

How the results depend on the processing

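No paired analysis was possible because each culture had 1 library per assay, and for the same reason no replicate could be left out. Alternatives with tags as mRNA level, counts on genes, median tails and other cutoffs for early genes and upstream ATGs were added after seeing the data. Of 51 alternatives, 30 stayed close to the reported value. Counts of genes at least 2-fold higher and lower by tags, 35 and 27, were 151 and 170 with 20 tags summed, 4 and 5 with 100, 18 and 70 in RNA-seq reads, and 85 and 603 in RPFs. Counts for TE, 0 higher and 705 lower, were 25 and 244 with the median change set to 0, 14 and 287 with counts on genes, and 20 and 223 with tags as the level of mRNA, and 182 were lower at 30 RPM, which tests fewer genes. The count of early genes at least 2-fold higher by RPFs, 9, was 5 at 100 RPFs summed and 6 with the authors' RPM. No share of all genes was taken at these settings. The difference in median TE change between genes with and without an upstream ATG was −0.28 in each alternative run. Genes with tails at least 10 nt longer and shorter, 198 and 193, were 45 and 37 at 100 tags and 345 and 312 by the median tail, whose median change was 0.50 nt. Depth limits the low genes, most of all in RNA-seq.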
